A study of Mus musculus with 4 samples.

Results

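Irg1 (immune-responsive gene 1, now named Acod1) and 8 enzymes of the tricarboxylic acid (TCA) cycle and its cytosolic counterparts were followed in mouse mucosal mast cells with and without interleukin-18 (IL-18). The 9 genes were Irg1, Aco1, Idh1, Idh2, Idh3a, Sdha, Sdhb, Fh1 and Mdh2. They were found by the gene name printed beside each non-control spot of the arrays, and every probe with such a name was kept. This gave 12 probes of 41174 on the array, and 9 of 27962 gene names. The genes were picked with their ratios in these arrays known, so their values are given as a description and carry no test.

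Mucosal mast cells (MMC) are the mast cells of epithelial surfaces, and here they had been differentiated in culture. IL-18 is a cytokine of the IL-1 family whose receptor signals through MyD88 to NF-kB. Each of 4 biological replicates gave an unstimulated culture, labelled with Cy3, and an IL-18 stimulated culture, labelled with Cy5, and each pair shared 1 two-colour array. The labels used here name no mouse strain, dose or time of stimulation. No array had its dyes swapped, so a dye effect of a probe and an effect of IL-18 cannot be told apart. Since RNA came from whole cultures, fewer cells of a type and less RNA per cell cannot be told apart either.

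IRG1 is a mitochondrial enzyme that removes carbon dioxide from cis-aconitate, an intermediate of the aconitase reaction, and so makes itaconate. Its gene is best known from macrophages stimulated with bacterial products, and itaconate is an inhibitor of succinate dehydrogenase. In the cycle, aconitase forms isocitrate, isocitrate dehydrogenases form 2-oxoglutarate, succinate dehydrogenase oxidises succinate to fumarate, fumarase hydrates it to malate, and malate dehydrogenase closes the cycle at oxaloacetate.

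The start of the Irg1 gene is shown because its probes had the highest ratios of the 12. The 120 bases before the start of Acod1 are at chr14:103046892-103047011 on the plus strand of GRCm38.p6 and were taken from RefSeq. Capitals mark GGAAATTCC, a kappaB-like motif that begins 85 bases before the start, and TATAAA, the core promoter box that begins 28 bases before it. The motifs were chosen after this sequence had been seen.
Acod1 promoter: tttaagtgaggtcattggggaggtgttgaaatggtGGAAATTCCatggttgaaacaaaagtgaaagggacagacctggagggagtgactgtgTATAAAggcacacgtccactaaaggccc

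Both strands of all RefSeq windows from 250 bases before to 50 after a start were searched for both motifs, which do not overlap in this window. GGAAATTCC was in 0.317% of 32851 promoters. The other, TATAAA, was in 13.6%. The window was found for 8 of the 9 genes, with 9 promoters among them, and Idh3a had no entry. Of these 9 promoters each motif was in 1, that of Acod1. A match of letters is a description of the window and says nothing of binding.

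Irg1 was far higher in the IL-18 channel on every array, at both of its probes. Probe A_51_P123625, designed on a macrophage cDNA, had a processed signal (the scanner software's background-subtracted and dye-normalized intensity, in scanner units) of 67.4, 51.4, 104 and 55.7 in the unstimulated cultures of replicates 1 to 4. In the IL-18 stimulated cultures of the same replicates it was 576, 369, 730 and 405. The channels did not overlap, and replicate 3 was the highest array in both of them. Probe A_51_P123630, designed on another Irg1 cDNA sequence, read 52.1, 45.6, 89.0 and 47.4 without IL-18 and 489, 356, 713 and 372 with it, again without overlap. Replicates 2 and 4 were the lowest 2 at either probe in the IL-18 channel.

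The level without IL-18 was dim but measurable. At A_51_P123625 the net Cy3 signal, before dye normalization, was 87.1 to 115 over a local background of no more than 29.0. The background correction used below (normexp) estimated a further Cy3 background of 28.7 to 32.7 within net signals, which left 54.3 to 84.9 at this probe. At A_51_P123630 the net Cy3 signal was 72.7 to 96.1. The scanner software called both Irg1 probes well above background in both channels on all 4 arrays. The processed signal varied between arrays by 34.3% (coefficient of variation) without IL-18 and by 32.1% with it.

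As log2 ratios of IL-18 over unstimulated after normexp background correction (with an offset of 50 added to each channel) and loess, A_51_P123625 gave 2.17, 1.81, 2.10 and 1.71. Their mean was 1.95 ± 0.22 (SD, n = 4), a 3.86-fold difference. A_51_P123630 gave 2.06, 1.76, 2.12 and 1.66, with a mean of 1.90 ± 0.23 (SD, n = 4). The probes differed by 0.05 ± 0.05 (SD, n = 4) on the log2 scale. With the software's ratios the same difference was -0.14 ± 0.03 (SD, n = 4), so which probe read higher depended on the processing. They ranked 4 and 5 of 24116 tested probes by ratio, counting as tested those that the software called well above background on 3 or more arrays in either one of the channels.

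The size of the Irg1 ratio depended on how the dim Cy3 signal was corrected. The software's own ratios, which have no offset, were 3.10, 2.84, 2.81 and 2.86 for A_51_P123625, with a mean of 2.90 ± 0.13 (SD, n = 4), or 7.48-fold. For A_51_P123630 they averaged 3.04 ± 0.13 (SD, n = 4), or 8.24-fold. With an offset of 16 in place of 50 the mean of A_51_P123625 was 2.30. With the correction's parameters estimated on all spots it was 1.60. The mean was thus above 0 under each of these settings.

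**Figure D1:**
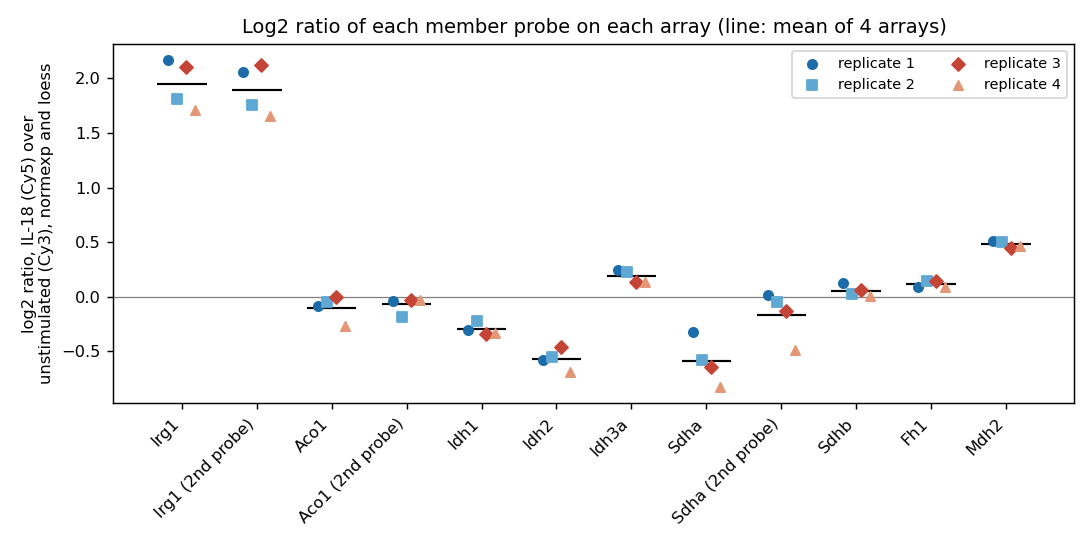
Log2 ratio of IL-18 (Cy5) over unstimulated (Cy3) after normexp and loess for each of the 12 probes, 1 point per array (4 replicates), with a line at the mean. Both Irg1 probes lie between 1.66 and 2.17, and the other 10 probes between -0.83 and 0.51.

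Aco1 is the cytosolic aconitase, which without its iron-sulfur cluster acts as iron regulatory protein 1. Its brighter probe, A_51_P391082, had a processed signal of 3246, 3385, 2817 and 3352 without IL-18 and of 3175, 3320, 2852 and 2907 with it, and these ranges overlapped. The mean log2 ratio was -0.10 ± 0.12 (SD, n = 4), and replicate 4, at -0.27, was the lowest array. The dimmer probe, A_52_P299115, averaged -0.07 ± 0.07 (SD, n = 4), with its channels overlapping as well. The software's ratio of the brighter probe was above 0 on 1 of 4 arrays. Under median centring of each array in place of loess the brighter probe averaged 0.63, so Aco1 had no settled direction.

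The isocitrate dehydrogenases went different ways. Idh1, the cytosolic enzyme that makes NADPH, had a processed signal of 136, 136, 130 and 128 without IL-18 and of 95.0, 106, 79.5 and 83.0 with it. The channels did not overlap, and the spot was dim in both. Its log2 ratios were -0.31, -0.22, -0.34 and -0.33, with a mean of -0.30 ± 0.05 (SD, n = 4). The software's ratios averaged -0.55 ± 0.15 (SD, n = 4).

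Idh2, the NADPH-making enzyme of mitochondria, had a processed signal of 576, 504, 430 and 546 without IL-18 and of 376, 328, 296 and 322 with it. All 4 IL-18 cultures were below all 4 unstimulated ones. The log2 ratios were -0.58, -0.56, -0.46 and -0.69, with a mean of -0.57 ± 0.10 (SD, n = 4), or 0.672 of the unstimulated level. The software's mean was -0.63 ± 0.09 (SD, n = 4). Under median centring Idh1 and Idh2 kept their sign but came to -0.06 and -0.10.

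Idh3a, the catalytic subunit of the NAD-dependent enzyme that runs the oxidative cycle, was slightly higher with IL-18. Its processed signal was 9024, 8035, 7935 and 7404 without IL-18 and 10998, 9706, 8834 and 8337 with it. The 2 ranges overlapped, although on each array the IL-18 channel was the higher. The log2 ratios were 0.24, 0.23, 0.14 and 0.13, with a mean of 0.18 ± 0.06 (SD, n = 4). Replicates 1 and 2, which shared a slide, averaged 0.23, and replicates 3 and 4, on the other slide, 0.13.

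Succinate dehydrogenase, the enzyme that itaconate inhibits, was read through its flavoprotein subunit Sdha and its iron-sulfur subunit Sdhb. The brighter Sdha probe, A_52_P109503, had a processed signal of 3455, 3396, 3327 and 4273 without IL-18 and of 2728, 2270, 2128 and 2474 with it. The channels did not overlap. Its log2 ratios were -0.33, -0.58, -0.64 and -0.83, with a mean of -0.59 ± 0.21 (SD, n = 4), or 0.662 of the unstimulated level. Replicate 4 was the lowest array and replicate 1 the highest. The mean was -0.45 on the slide of replicates 1 and 2 and -0.74 on that of replicates 3 and 4.

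The Sdha probes did not give the same size. A_51_P410823 read 1384, 1148, 1143 and 1590 without IL-18 and 1411, 1135, 1056 and 1170 with it, so its channels overlapped. Its log2 ratios were 0.01, -0.05, -0.13 and -0.49, with a mean of -0.16 ± 0.23 (SD, n = 4). The brighter probe was below the dimmer one on all 4 arrays, by -0.43 ± 0.10 (SD, n = 4), a gap larger than that spread. The software's ratios gave nearly the same gap, -0.45 ± 0.11 (SD, n = 4). Both were designed on 1 reference transcript, and what sets them apart was not tested. Under median centring the brighter probe turned to 0.13 and the dimmer to 0.45.

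Sdhb showed next to nothing after loess, while under median centring it averaged 0.99. Its processed signal was 17039, 15520, 14314 and 16264 without IL-18 and 18761, 16049, 15033 and 16519 with it, and these ranges overlapped. The mean log2 ratio was 0.05 ± 0.05 (SD, n = 4), all 4 arrays being above 0, with replicate 1 at 0.12 the highest.

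Fh1 (fumarase) and Mdh2 (mitochondrial malate dehydrogenase) complete the cycle's last steps. Fh1 had a processed signal of 9311, 8762, 7914 and 8642 without IL-18 and of 10113, 10000, 8933 and 9549 with it. The ranges overlapped, while every array had the higher signal in the IL-18 channel. Its log2 ratios ran from 0.09 to 0.15, with a mean of 0.12 ± 0.03 (SD, n = 4), or 1.08-fold.

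Mdh2 was the brightest spot of the 12, at the 99.7th percentile of tested probes by mean brightness. Its log2 ratios were 0.51, 0.50, 0.44 and 0.46, with a mean of 0.48 ± 0.03 (SD, n = 4). The processed signal was 109125, 109504, 107943 and 104987 without IL-18 and 120022, 118513, 110230 and 115922 with it, without overlap but with a far smaller gap. The software's mean ratio was accordingly 0.11 ± 0.05 (SD, n = 4), against 1.76 under median centring. The small SD of Mdh2 thus covers the arrays and not the choice of scaling, which moved the value more than in any other of the 9 genes.

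**Figure D2:**
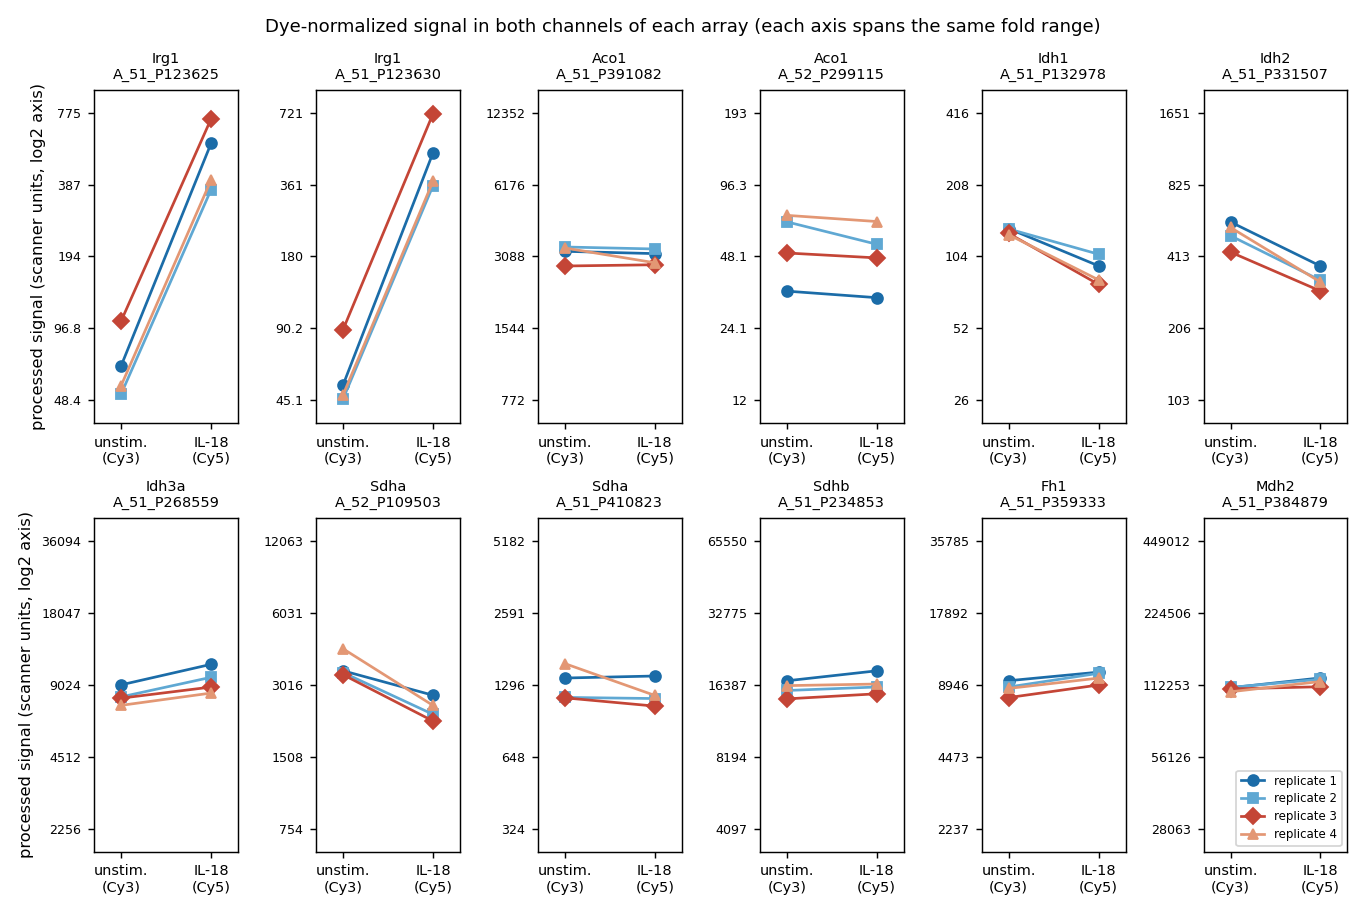
Processed signal (scanner units, log2 axis) of all 12 probes in the unstimulated (Cy3) and IL-18 (Cy5) channel, with a line for each of the 4 arrays and the same fold span on each axis. The channels do not overlap for both Irg1 probes, Idh1, Idh2, Sdha A_52_P109503 and Mdh2, and overlap for the other 6 probes. The share of all tested probes without overlap was not computed, so nothing is read from this count.

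Read together at the brightest probe of each gene, 5 of the 9 genes were above 0 on all 4 arrays and 4 were below 0 on all 4. Without Irg1 the median over the other 8 genes was -0.02. Among all tested probes with 4 values, 62.1% had 1 sign on all 4 arrays. Limma's test was run over all probes, with a Benjamini-Hochberg adjusted p of 0.05 as the threshold. It called 4 of the 9 genes higher (Irg1, Mdh2, Idh3a and Fh1) and 3 lower (Sdha, Idh2 and Idh1). As the 9 genes were picked with their ratios known, these calls describe where they fell and are no test of them. The Fh1 call was lost with an offset of 16, with the correction estimated on all spots and without replicate 1, 2 or 3, that of Idh3a without replicate 2 and that of Mdh2 with the software's ratios. Those of Idh1, Idh2 and Sdha were lost under median centring, where Aco1 and Sdhb were called higher. The same test called 26.4% of 16978 tested genes higher and 20.6% lower, or 47.0% in all, and nothing is read from the count over genes that were picked by their ratios. Over probes, 5 of the 12 were higher and 3 lower, beside 24.3% and 24.0% of all tested probes (48.3% in either direction). The median absolute log2 ratio over all tested genes was 0.13, next to the 0.12 of Fh1.

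**Figure D3:**
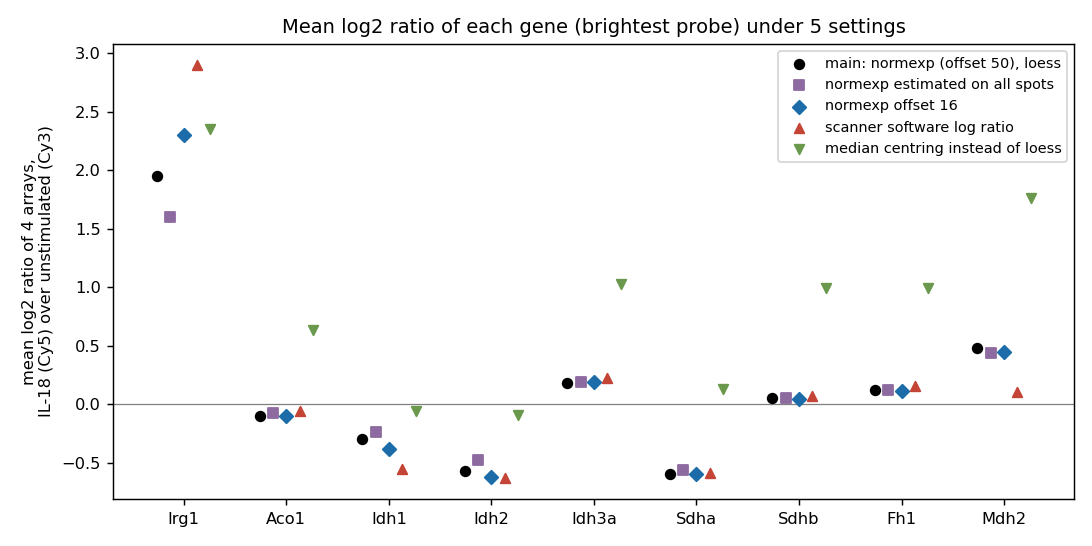
Mean log2 ratio over 4 arrays of each of the 9 genes at its brightest probe under 5 settings of background correction and scaling. Irg1 runs from 1.60 to 2.90, and under median centring (downward triangles) Aco1 and Sdha are above 0.

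The scale of these shifts followed the normalization. Median centring moved the median log2 ratio of all tested probes from 0.01 to 0.40 and turned the count of genes from 4483 higher and 3500 lower to 12610 and 640. Directions close to 0, and every call of a lower gene below, hold relative to the loess trend through the bulk of spots of like brightness. Irg1, Idh3a, Sdhb, Fh1 and Mdh2 were above 0, and Idh1 and Idh2 below 0, under all settings, and Aco1 and Sdha turned under median centring.

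The other genes of the cycle, of its supply and of its exits were taken from lists of 48 genes, of which 45 were on the array and 43 were tested. Of these, 10 were called higher and 12 lower at their brightest probe, and 21 did not pass. That is 51.2% called, beside 47.0% of all tested genes, with a median log2 ratio of -0.0038 beside 0.03 over all genes. Under median centring 37 of the 43 were higher and 0 lower. Without replicate 1, 2 or 3 the higher calls dropped to 6, 5 and 5, and without replicates 2 or 3 the lower calls dropped to 6 in either case. With the correction estimated on all spots 10 were higher and 4 lower, and with the software's ratios 9 and 7. Across the 14 alternatives run for each gene, 4 of the 10 higher calls were kept in all (Sucla2, Sdhaf4, Me1 and Abcg2). Of the 12 lower calls, 4 were kept in all but median centring (Idh3b, Acly, Slc25a10 and Glud1). These 14 did not include asking every tested probe of a gene to pass. The other probes of Me1 and Abcg2, at 0.10 and 0.15, did not pass.

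Among the 11 other cycle enzymes 3 were called higher and 3 lower at their brightest probe. That is 54.5% called, beside 47.0% of all tested genes. Sucla2, the ATP-forming subunit of succinyl-CoA ligase, rose by 0.37 ± 0.09 (SD, n = 4; limma adjusted p = 1.12e-03), at all 3 of its probes. Cs, citrate synthase, was higher by 0.30 ± 0.06 (limma adjusted p = 1.72e-03) at its brighter probe and lower at the other, with -0.31, and the higher call was lost with the software's ratios. Suclg2, the GTP-forming subunit, likewise gave 0.24 ± 0.17 at 1 probe and -0.31 at the other, so neither gene has a settled direction. The Suclg2 call was also lost without replicate 1, 2 or 3.

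Idh3b, the beta subunit that partners Idh3a, fell by 0.39 ± 0.20 (SD, n = 4; limma adjusted p = 5.01e-03), with -0.20, -0.32, -0.39 and -0.66 on the 4 arrays. Idh3g, its gamma subunit, gave 0.11 ± 0.05 and did not pass, so the 3 subunits of this enzyme stood on either side of 0. Ogdh, the first enzyme of the 2-oxoglutarate dehydrogenase complex, fell by 0.39 ± 0.26 (limma adjusted p = 0.0132), at both probes, a call that was lost with the correction estimated on all spots. Dld, the complex's dihydrolipoamide dehydrogenase, was called lower at its brightest probe, at -0.14 ± 0.09, while its other probes, at -0.07 and 0.04, did not pass. The Dld call was lost when any 1 replicate was left out. It was also lost with an offset of 16, with the software's ratios and with the correction estimated on all spots. Under median centring Idh3b, Ogdh and Dld turned to 0.33, 0.10 and 0.71.

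Suclg1 was at 0.02 ± 0.15 and did not pass. Dlst, the succinyltransferase of the 2-oxoglutarate dehydrogenase complex, was at 0.03 ± 0.15 at its brightest probe, while its other probes were called lower at -1.08 and higher at 0.33, so it had no settled direction. The membrane anchors of succinate dehydrogenase, Sdhc and Sdhd, were at -0.08 ± 0.09 and -0.10 ± 0.06, and neither passed. Sdhaf4, which protects the flavinated Sdha during assembly, rose by 0.45 ± 0.10 (SD, n = 4; limma adjusted p = 6.37e-04), while Sdhaf2, its flavin attachment factor, was at -0.03 ± 0.13.

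Of the 11 tested genes of pyruvate entry 3 were called higher and 2 lower at their brightest probe, all by little. That is 45.5% called, beside 47.0% of all tested genes. Mpc1, a subunit of the mitochondrial pyruvate carrier, rose by 0.20 ± 0.08 at both its probes, and its call was lost without replicate 2 or 3. Pdha1 and Pdhx, parts of pyruvate dehydrogenase, were at 0.14 ± 0.03 and 0.13 ± 0.05, and the calls were lost without replicate 1, 2 or 3. Their other probes were at -0.04 and -0.10 and did not pass. Pcx, pyruvate carboxylase, was at -0.18 ± 0.12 and the kinase Pdk2 at -0.16 ± 0.06, and both calls were lost without replicate 2 or 3, that of Pcx also without replicate 1.

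Of the 12 genes of cytosolic reactions and mitochondrial exchange, 1 was called higher and 6 lower at their brightest probe. Over all tested genes 26.4% were called higher and 20.6% lower. With the software's ratios 3 of the 12 were lower. Acly, which splits citrate in the cytosol into acetyl-CoA and oxaloacetate, fell by 0.46 ± 0.12 (SD, n = 4; limma adjusted p = 8.06e-04), with -0.36, -0.46, -0.40 and -0.63 on the 4 arrays. Me1, the cytosolic NADP-dependent malic enzyme, rose by 0.37 ± 0.04 (SD, n = 4; limma adjusted p = 6.30e-04), while its other probe was at 0.10 and did not pass. The carrier Slc25a10, which exchanges malate and succinate for phosphate, fell by 0.21 ± 0.03. The mitochondrial malic enzyme Me2 fell by 0.19 ± 0.04, a call that was lost with the software's ratios and with the correction estimated on all spots. The citrate carrier Slc25a1 (-0.23 ± 0.22) and the aspartate aminotransferases Got2 (-0.24 ± 0.20) and Got1 (-0.15 ± 0.10) were lower in calls that were each lost without replicate 2 or 3. Those of Slc25a1 and Got1 were also lost without replicate 1, and that of Got1 without replicate 4. Mdh1, the cytosolic partner of Mdh2, was at 0.07 ± 0.09 and did not pass. Under median centring none of these 6 was lower.

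Of 3 genes of glutamine entry, Glud1, which makes 2-oxoglutarate from glutamate, fell by 0.25 ± 0.07 (SD, n = 4; limma adjusted p = 4.22e-03) but was at 0.78 under median centring. Of 4 tested genes linked to itaconate, 2 were called higher at their brightest probe. Abcg2, a membrane exporter reported to carry itaconate, rose by 0.25 ± 0.09 (SD, n = 4; limma adjusted p = 4.87e-03), while its other probe was at 0.15 and did not pass. Irf1, an interferon regulatory factor linked to Irg1 induction, was at 0.15 ± 0.05 at its brighter probe and called lower at the other, with -0.53, so it had no settled direction, and the higher call was lost without replicate 1, 2 or 3. Irf8 was at 0.05 ± 0.06 and did not pass.

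**Figure D4:**
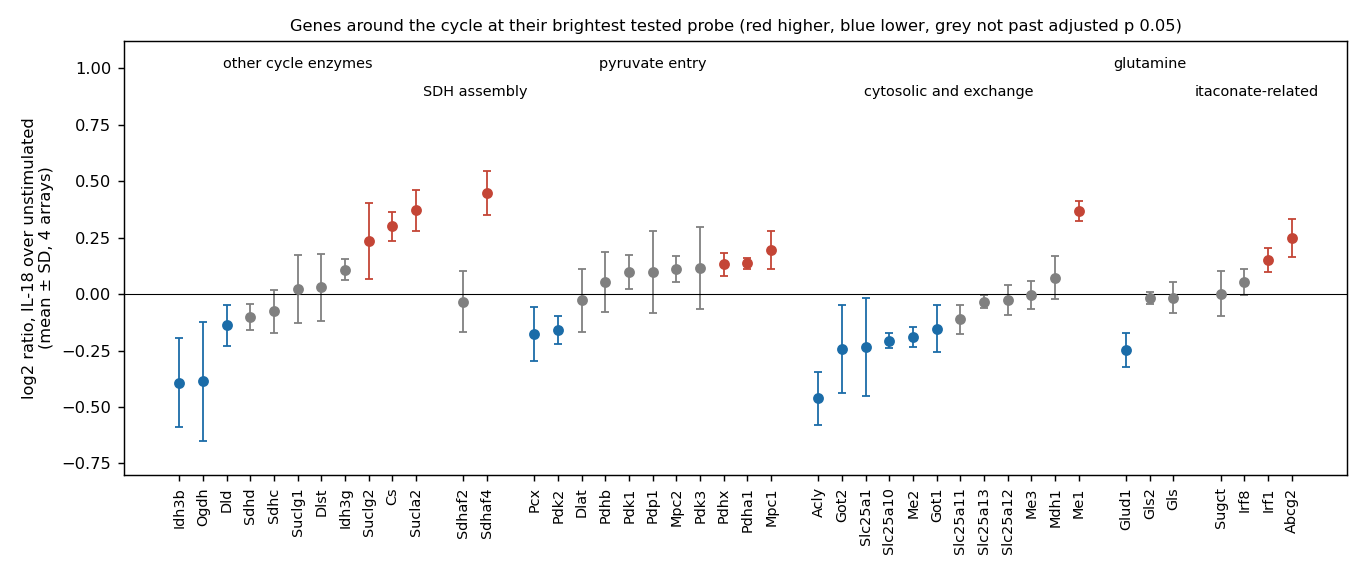
Mean log2 ratio of IL-18 over unstimulated (bars: SD of 4 arrays) of the 43 tested genes around the cycle at their brightest probe, ordered within 6 lists. The 10 genes in red and 12 in blue passed the threshold, and all lie between -0.46 and 0.45.

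The genes whose ratios were nearest to those of Irg1 over the 4 arrays were named by the root mean square difference of log2 ratios from probe A_51_P123625, among 12762 genes with a plain symbol. They were Nfkbiz (0.212), Ccl3 (0.284), Traf1 (0.304), Il1b (0.317) and Zc3h12a (0.324). Nfkbiz, a nuclear IkB protein, had log2 ratios of 1.82, 1.72, 1.89 and 1.69. Ccl3, a chemokine, averaged 1.85 ± 0.20 (SD, n = 4), Traf1, an adaptor of TNF receptors, 1.72 ± 0.19, Il1b, a cytokine, 2.18 ± 0.18, and Zc3h12a, an endonuclease of inflammatory mRNAs, 1.74 ± 0.11. The other Irg1 probe was nearer than any of them, at 0.0663. With the software's ratios these 5 genes averaged 1.88 to 2.34, against 2.90 for Irg1.

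Since Irg1 is best known from macrophages, macrophage markers are given beside it. All 11 were tested and well above background in both channels on all 4 arrays. By limma's test 36.4% of them were called, beside 47.0% of all tested genes. Of the macrophage markers 2 were higher (Adgre1, 0.27, and Ly6c1, 0.19) and 2 lower (Cx3cr1, -0.42, and Csf1r, -0.20), with a median of 0.00. Their summed processed signal was 4815 to 5499 without IL-18 and 4999 to 5791 with it, and these ranges overlapped. Of 7 neutrophil markers on the array 4 were well above background on no array, and none of the 3 tested passed. The share of other cells in the Irg1 signal was not tested. All 10 mast cell markers were tested, with a summed signal of 549350 to 717026 without IL-18 and 650477 to 748494 with it. Of these 5 were higher and 2 lower, beside the 47.0% of all genes called. The higher ones were Fcer1a (0.86), Mcpt1 (0.73), Cpa3 (0.51), Gata2 (0.35, other probe called lower at -0.27) and Mcpt2 (0.21). With the software's ratios these 5 came to 0.40, 0.34, 0.13, 0.08 and -0.14, and the median over the list was -0.0054. The lower ones were Tpsb2 (-0.74) and Mitf (-0.39), at -0.74 and -0.36 with the software's ratios. Under median centring Tpsb2 and Mitf were above 0. Of the 2 basophil markers, Mcpt8 was higher, at 0.39, and Prss34, at 0.09, did not pass. What part these markers have in the values of the 9 genes was not tested.

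The 4 arrays each held 43379 gene spots, of which 49.9% to 54.0% were well above background in Cy3 and 57.9% to 62.7% in Cy5, and 0 were saturated. Log2 ratios over tested probes correlated between arrays with r from 0.743 (replicates 1 and 4) to 0.905 (replicates 2 and 3), as a description across probes. The number of arrays limits the precision: an exact sign-flip test on 4 arrays cannot go below p = 0.125 (two-sided).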

How the data were processed

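RNA of 4 paired cultures was hybridised to 4 two-colour arrays. Per the labels, the authors scanned and normalized them with Agilent Feature Extraction 9.1. The deposited scanner files hold intensity values for each spot and the software's log10 ratio, which were turned to log2 as an alternative. The deposited value table holds the same log10 ratios rounded (largest difference 0.00496). Genes were named as in the files.

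Mean signals minus local background were corrected with limma 3.58.1 (R 4.3.3) by normexp with an offset of 50. Loess within arrays followed, then a fit of the mean log2 ratio (lmFit, eBayes) with Benjamini-Hochberg adjustment over 24116 probes, the threshold being 0.05. Control spots and outlier flags were left out. The pipeline was checked on simulated data. Each gene is represented by its brightest tested probe.

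With all spots in its estimate, normexp failed on replicate 1. The estimated Cy3 background mean was -381 there, against 26.3 to 32.0 on the other arrays, and 6 spots had a net Cy3 signal below -50, the lowest of -32191. Spots flagged for a non-uniform local background (144 to 272 per array, all 6 among them) were therefore left out of the parameter estimate, keeping their values. The mean on replicate 1 was then 29.6. This was chosen after member values, those of Irg1 included, had been seen, and it raised the Irg1 ratio. The estimate on all spots is kept as an alternative.

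The members and lists were chosen with earlier results of these data known. Named were every member with every probe, each list gene past the threshold (up to 6 a list), 7 fixed genes (Cs, Ogdh, Suclg1, Sdhc, Sdhd, Mdh1 and Irf1) and the 5 genes nearest to Irg1. Another fixed gene of the lists is not reported here and is in none of their counts. Dlst, Idh3g, Sdhaf2 and Irf8 were added after their values were seen. Alternatives were the software's ratios, the value table, an offset of 16, median centring, scaling between arrays, other filters on dim probes, eBayes with trend, the slide as a random block, all probes of a gene, and each replicate left out.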

Additional observations from a re-analysis of the deposited data

Results flagged for a closer look

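In 6 of 55 sets of 4 arrays examined, 1 array stood far from the other 3, where chance gives about 1 in 20. Among the 12 member probes this was the dimmer Aco1 probe, A_52_P299115, with -0.18 on replicate 2. Among the other genes, replicate 4 stood apart for Idh3g (0.041) and Irf8 (0.14), replicate 1 for Pdk2 (-0.065) and Sugct (0.15), and replicate 3 for Abcg2 (0.12). The cause was not tested.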

How the results depend on the processing

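The estimate on all spots gave 1.60 for Irg1, -0.24 for Idh1, -0.48 for Idh2 and 0.44 for Mdh2. It called 2320 genes lower and, of the lists, 1 cycle enzyme, 0 pyruvate genes, 2 exchange genes and 4 in all lower. The software's ratios (and the value table) gave 2.90 for Irg1, -0.55 for Idh1, 0.16 for Fh1 and 0.11 for Mdh2, with 1 pyruvate gene, 3 exchange genes and 7 in all lower. An offset of 16 gave 2.30 for Irg1, -0.38 for Idh1 and 0.45 for Mdh2. Over all tested probes Sdha averaged -0.38. Median centring gave 2.35 for Irg1, 0.63 for Aco1, -0.060 for Idh1, -0.10 for Idh2, 1.03 for Idh3a, 0.13 for Sdha, 0.99 for Sdhb, 0.99 for Fh1 and 1.76 for Mdh2. It called 16749 probes higher and 1432 lower, 12610 genes higher and 640 lower, and 10 cycle enzymes, 2 assembly genes, 10 pyruvate genes, 10 exchange genes, 2 glutamine genes and 37 in all higher, with 0 lower in each of these lists. It turned Acly to 0.15, Dld to 0.71, Glud1 to 0.78, Got1 to 0.64, Got2 to 0.48, Idh3b to 0.33, Me2 to 0.52, Ogdh to 0.10, Pcx to 0.49, Sdhc to 0.68, Sdhd to 0.92, Slc25a1 to 0.39 and Slc25a10 to 0.53. With every tested probe required to pass the same way, 1 cycle enzyme, 1 pyruvate gene, 0 exchange genes, 0 itaconate genes and 3 in all were higher. Leaving out 1 replicate gave 3541 to 6266 probes and 2723 to 4814 genes higher, 5 to 12 list genes higher and 6 to 11 lower, 0 to 4 pyruvate genes higher and 0 to 2 lower, 3 to 6 exchange genes lower and 1 to 2 itaconate genes higher, the lowest counts being without replicate 2 or 3. Irg1 ranged from 1.88 to 2.03 over these 4 fits. The background estimate, chosen after values were seen, and the unswapped dyes limit small differences; the causes of the shifts were not tested. The fit is itself paired, since each array's ratio compares the 2 cultures of 1 replicate.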
